A study of Mus musculus with 6 samples.

Results

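The genes of AKT, TSC and mTOR growth signalling were followed in mouse pancreatic islets, with Mtor, Rptor, Rictor, Tsc1, Tsc2, Rheb, Akt1, Akt2, Rps6kb1 and Foxo1 chosen by gene symbol. Each was read from its probe set with the highest mean level, a probe set being the group of probes that measures one gene. Of these 10 genes, 9 were measured, among 22206 gene probe sets in all. Rps6kb1, which encodes an S6 kinase, found no probe set by symbol and is not analysed here. Islet RNA of 3 Control and 3 Pax8 +/- samples was hybridized to 6 Clariom S arrays, with each genotype and replicate number taken from the sample labels. In Pax8 +/- mice 1 copy of Pax8, which thyroid follicular cells need, is disrupted, and the Control group corresponds to the wild-type mice of the study. The methods of the study give males on a C57BL/6 background, killed at 9 months of age after a fast of 16 h, and islets that were freed with collagenase, and the labels add that these were picked by hand.

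AKT kinases act below the insulin receptor and phosphoinositide 3-kinase. They inhibit the TSC complex, which otherwise switches off the small GTPase RHEB, and GTP-bound RHEB activates mTOR complex 1 at the lysosome, where protein synthesis and cell growth are controlled. AKT also keeps FOXO1 out of the nucleus. In beta cells this pathway is known for setting cell size, insulin content and beta-cell mass, and most of its control lies in phosphorylation, which an RNA array does not see.

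Rheb was the member that stood apart most between the genotypes. Its 3 Pax8 +/- values all lay under the lowest Control value, with a mean log2 difference of -1.28, whereas Tsc2 and Mtor had a higher mean in Pax8 +/- islets by 0.94 and 1.02 on groups that overlapped. Akt1, Akt2, Tsc1, Rptor, Rictor and Foxo1 had 95% confidence intervals of the difference that include 0. After adjustment over all probe sets 0 of the 9 genes were called. In all 22206 probe sets the share called was likewise 0%, the smallest adjusted p being 0.745 (limma, Benjamini-Hochberg). Limma gave an unadjusted p of at most 0.05 to 1312 probe sets. An ordinary linear model without moderation also called 0 after adjustment and gave such a p to 976. The word lower or higher therefore describes these 6 arrays, and no member passed the adjusted test.

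Levels are the deposited log2 values, on which a difference of 1 is taken as a doubling. The highest values were 19.88 to 19.93, and since no source used here tells how the scale reaches so far, folds hold only if its unit is a plain log2. A level was called above background when it exceeded the 95th percentile of the negative controls on its array, which lay between 7.60 and 7.97. Array medians lay between 5.25 and 5.33, and 25.3% to 29.5% of gene probe sets were above background. Pax8 itself was below background on all 6 arrays, from 4.58 to 5.05, and gives no check of the labels. As markers of islets, Ins2, Iapp and Gcg were within 0.1 of the highest value of every array, the upper end of the scale, and so did the acinar enzyme genes Prss2, Cpa1 and Ctrb1. Pax8 +/- replicate 1 stood nearer to the Control arrays than to the other Pax8 +/- arrays over all probe sets. Control replicate 3 had Pearson correlations of 0.981 and 0.970 with Control replicates 1 and 2. With Pax8 +/- replicates 1, 2 and 3 they were 0.983, 0.983 and 0.978, so that these ranges overlapped. Nothing in the labels tells if 1 mouse or a pool was used per array. The p-values therefore measure the spread between these samples, which may be technical, and an exact 2-sided permutation test of 3 against 3 arrays cannot go below p = 0.1.

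The 2 promoters printed here belong to Rheb and Mtor, the members with the largest differences in each direction. They are the 250 bases before the annotated start, from the RefSeq promoter table for GRCm38.p6, read 5′ to 3′ on the strand of the gene. That of Rheb lies at chr5:24842362-24842611 on the minus strand, with a GC content of 68.0%, and that of Mtor at chr4:148448332-148448581 on the plus strand, with 54.4%. Capitals mark a CACGTG match, the letters of an E-box, and any match to ACGTG or GCGTG, the core letters of a hypoxia response element.
Rheb: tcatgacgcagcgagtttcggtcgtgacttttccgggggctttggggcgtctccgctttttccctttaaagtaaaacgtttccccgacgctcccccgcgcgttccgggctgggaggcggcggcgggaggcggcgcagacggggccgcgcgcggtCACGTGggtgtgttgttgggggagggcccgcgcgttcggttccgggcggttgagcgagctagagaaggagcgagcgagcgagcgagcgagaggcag
Mtor: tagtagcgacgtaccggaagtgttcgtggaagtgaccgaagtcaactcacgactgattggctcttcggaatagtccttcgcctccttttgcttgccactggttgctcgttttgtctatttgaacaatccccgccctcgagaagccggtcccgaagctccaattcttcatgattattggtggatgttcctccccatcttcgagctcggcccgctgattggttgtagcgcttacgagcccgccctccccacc
On both strands, CACGTG was found from 96 to 91 bases before the start of Rheb, and being its own reverse complement it holds ACGTG on either strand, so that the motifs overlap there. Among the 13 windows annotated for the 9 measured genes, this was the single one with CACGTG, while 3 held ACGTG and 8 held GCGTG. The share over all 32851 promoter windows of the same length was 6.02% for CACGTG, 16.6% for ACGTG, 28.2% for GCGTG and 3.17% for GTAAACA, the core of a FOXO site. GTAAACA was found in 1 of the 13 windows, for Akt1. The Mtor window held none of these letters. A match is a stretch of letters and not a measured binding site.

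Akt1 (Entrez Gene 11651), the most widely expressed AKT kinase, was above background on all 6 arrays. Its log2 level was 10.99, 11.13 and 11.69 on the Control arrays and 11.66, 11.68 and 11.45 on the Pax8 +/- arrays. Control replicate 3 had the highest value of all, so that the groups overlapped. The mean was 11.27 ± 0.37 (SD, n = 3) in Control and 11.60 ± 0.13 (SD, n = 3) in Pax8 +/- islets. They differed by 0.33 (standard error 0.27, 95% confidence interval -0.30 to 0.95, limma adjusted p = 0.802).

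Akt2 (Entrez Gene 11652), the AKT kinase most tied to the metabolic actions of insulin, was also above background on every array. It stood at 9.0, 9.17 and 9.29 in Control and at 9.87, 9.61 and 9.05 in Pax8 +/- islets. Replicates 1 and 2 of Pax8 +/- were above all Control arrays and replicate 3 lay among them. The difference was 0.35 (standard error 0.29, interval -0.30 to 1.01, limma adjusted p = 0.800). Both differences were larger than their standard errors but had intervals that include 0 and leave room for a change of 0.95 upward for Akt1 and of 1.01 for Akt2.

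The TSC complex is built on TSC1, or hamartin, which stabilises TSC2, or tuberin, and TSC2 makes RHEB hydrolyse its GTP. Tsc2 (Entrez Gene 22084) was at 9.21, 8.64 and 9.92 on the Control arrays and at 9.56, 10.55 and 10.45 on the Pax8 +/- arrays, above background on all 6. The highest values were those of Pax8 +/- replicates 2 and 3, while replicate 1 lay below Control replicate 3. The means of 9.25 ± 0.64 (SD, n = 3) and 10.19 ± 0.55 (SD, n = 3) differed by 0.94 (standard error 0.41, interval 0.01 to 1.86), or 1.91-fold, with a limma adjusted p = 0.745. The exact 2-sided permutation p of Tsc2 was 0.2.

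Tsc1 (Entrez Gene 64930) had levels of 8.61, 8.13 and 8.86 in Control and of 8.60, 9.32 and 9.46 in Pax8 +/- islets. The pattern over the arrays was that of Tsc2, with Pax8 +/- replicates 2 and 3 highest and replicate 1 within the Control range. The difference was 0.59 (standard error 0.33, interval -0.15 to 1.34, limma adjusted p = 0.745). Tsc1 was above background on every array.

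Rheb (Entrez Gene 19744) lay far above background on all 6 arrays. It was at 14.52, 14.58 and 13.98 on the Control arrays and at 13.78, 12.98 and 12.48 on the Pax8 +/- arrays. The groups did not overlap, but the gap between Pax8 +/- replicate 1 and the lowest Control array, replicate 3, was -0.20. The means were 14.36 ± 0.33 (SD, n = 3) and 13.08 ± 0.65 (SD, n = 3), which differed by -1.28 (standard error 0.37, interval -2.12 to -0.43), or 2.43-fold lower in Pax8 +/- islets. Rheb stood at rank 87 of 22206 by p, with a limma adjusted p = 0.745 and an exact 2-sided permutation p = 0.1, the smallest that 3 against 3 arrays can give. Leaving out any single array kept an unadjusted p of at most 0.05, with differences from -1.63 to -0.98. Since the groups do not overlap, the direction of these values was fixed.

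mTOR is the kinase shared by both mTOR complexes. Mtor (Entrez Gene 56717) was at 6.93, 6.91 and 8.13 in Control and at 7.91, 8.86 and 8.25 in Pax8 +/- islets. Control replicates 1 and 2 were below background and the other 4 arrays above it, so that the size of the difference is not exact. Control replicate 3 lay above Pax8 +/- replicate 1. The means were 7.33 ± 0.70 (SD, n = 3) and 8.34 ± 0.48 (SD, n = 3), which differed by 1.02 (standard error 0.41, interval 0.08 to 1.95, limma adjusted p = 0.745), and the exact 2-sided permutation p was 0.2.

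Rictor (Entrez Gene 78757), the defining subunit of mTOR complex 2, which phosphorylates AKT, was above background on all arrays. It stood at 8.97, 9.56 and 8.82 in Control and at 8.96, 8.75 and 8.85 in Pax8 +/- islets. Apart from Control replicate 2 the arrays lay close together. The difference was -0.26 (standard error 0.28, interval -0.90 to 0.37, limma adjusted p = 0.849).

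Rptor (Entrez Gene 74370), the defining subunit of mTOR complex 1, was below background on all 6 arrays, at 6.46, 6.54 and 6.63 in Control and at 6.01, 7.38 and 6.53 in Pax8 +/- islets. Pax8 +/- arrays held both the lowest and the highest value. Its difference of 0.09 (standard error 0.36, interval -0.73 to 0.92, limma adjusted p = 0.966) cannot be read as a level of transcript.

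Foxo1 (Entrez Gene 56458), a transcription factor that AKT inhibits and that in beta cells responds to nutrient and oxidative stress, was at 8.19, 7.49 and 8.66 in Control and at 7.56, 8.71 and 8.42 in Pax8 +/- islets. Control replicate 2 and Pax8 +/- replicate 1 were below background, and the groups overlapped over almost their whole range. The difference was 0.12 (standard error 0.40, interval -0.81 to 1.05, limma adjusted p = 0.962).

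**Figure D1:**
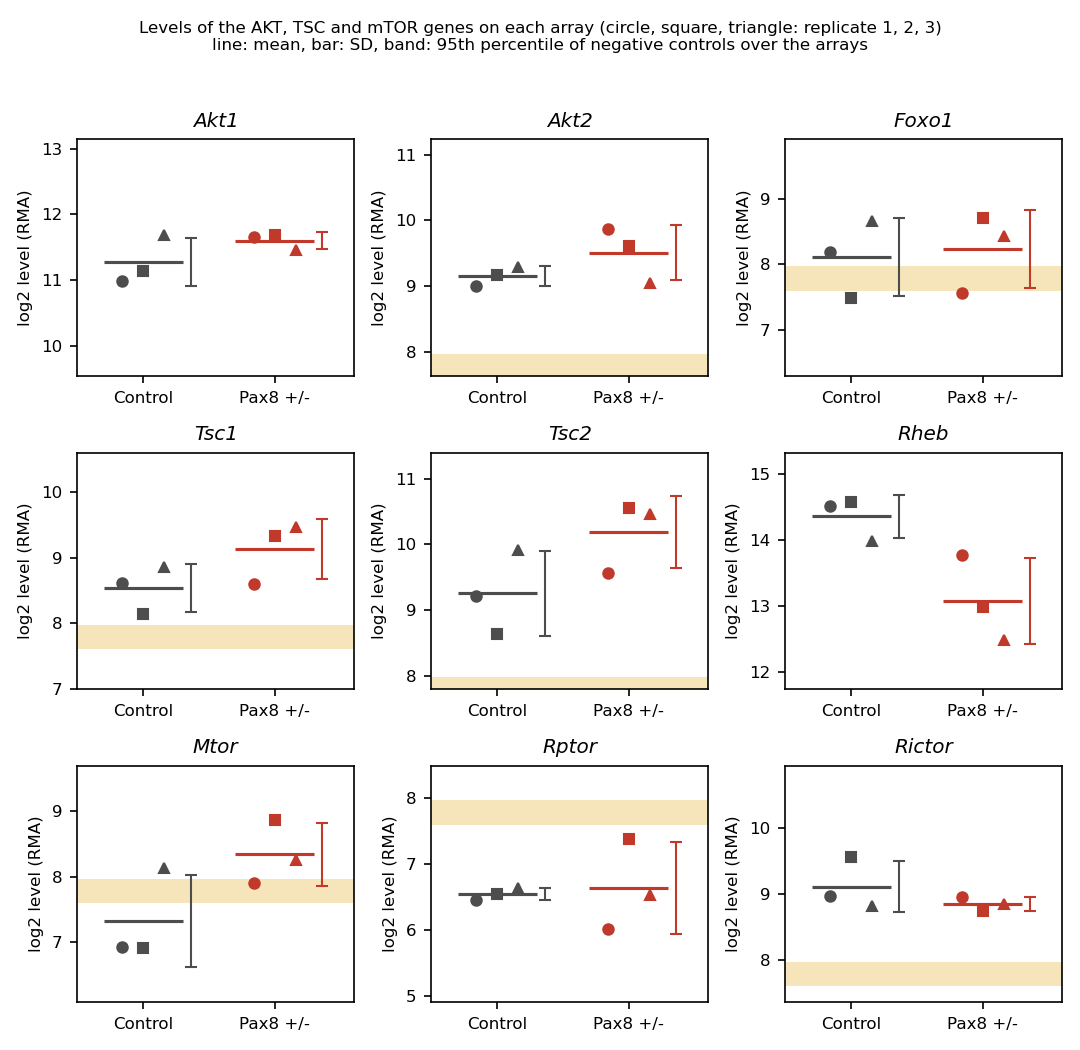
Log2 level of the 9 measured genes on each array, by genotype, with group means as lines, SDs (n = 3) as bars and the range of the background percentiles (7.60 to 7.97) as a band. Every panel spans the same number of log2 units, and Rheb is the gene whose groups do not overlap.

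Counted together, 7 of the 9 genes had a higher mean in Pax8 +/- islets and 2 (Rheb and Rictor) a lower one, where 49.2% of all probe sets were higher. The median difference was 0.33 for the members and -0.01 for all probe sets, and the median size regardless of sign was 0.35 and 0.26. These sets were not matched for level. Of the 9 members 6 were above background on all 6 arrays, beside 25.3% to 29.5% of all probe sets on a single array. At an unadjusted p of at most 0.05, 2 members were higher (Mtor and Tsc2), beside 3.14% of all probe sets, and 1 was lower (Rheb), beside 2.77%. Groups that did not overlap were found for 0 members in the higher direction, where the share was 4.52%, and for 1 member, Rheb, in the lower direction, where it was 5.14%. In the limma fit used here, neither direction held a member at the thresholds of the study. These are a fold change of at least 2.5 with an unadjusted p of at most 0.05. They were passed as higher by 0.648% of probe sets (144) and as lower by 0.351% (78). Rheb, at 2.43-fold, came nearest to that fold. The study reported more genes in each direction from its own analysis, so its calls for the members can differ.

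**Figure D2:**
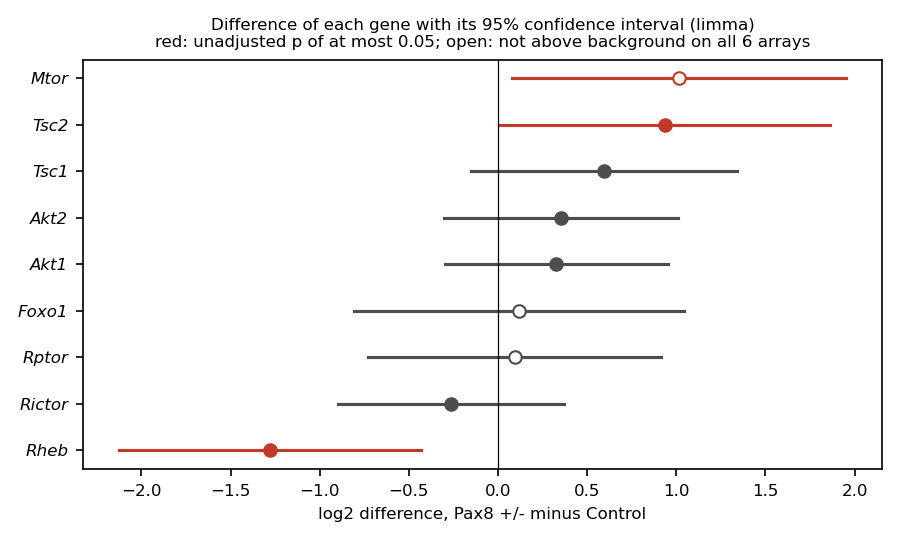
Log2 difference, Pax8 +/- minus Control, of the 9 genes with 95% confidence intervals from limma (n = 3 per group). The intervals of Mtor, Tsc2 and Rheb exclude 0 before adjustment, and open points mark genes that were not above background on all 6 arrays.

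These counts rested on single arrays. Without Control replicate 1, Control replicate 2, Pax8 +/- replicate 2 or Pax8 +/- replicate 3, Rheb was the 1 member left at an unadjusted p of at most 0.05, in fits where 2.83%, 2.36%, 2.48% and 3.25% of all probe sets had such a p, beside 5.91% with all arrays. Without Pax8 +/- replicate 1 there were 4, Tsc1 being added, beside 15.3% of all probe sets. Over these leave-outs the difference of Mtor ran from 0.75 to 1.42 and that of Tsc2 from 0.63 to 1.27. Pax8 +/- replicate 1 lay within the Control range for 6 of the 9 members, beside 55.8% of all probe sets, and Control replicate 3 within the Pax8 +/- range for 7, beside 59.9%.

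The rest of the pathway was taken from 9 lists of 104 genes, the members included, of which 100 were measured. The others are not analysed here. Means were higher in Pax8 +/- islets for 59 and lower for 41, with a median difference of 0.09. At an unadjusted p of at most 0.05, 5 were higher and 1 was lower, and 0 passed the adjusted test. Of the 91 genes that are not members, 3 were higher at that p, a share near the 3.14% of all probe sets, and 0 were lower. Groups did not overlap for 5 in the higher and 2 in the lower direction, beside 4.52% and 5.14% of all probe sets. The 3 genes were Inppl1, Tbc1d7 and Sgk1.

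Inppl1 encodes SHIP2, a lipid phosphatase that removes the product of phosphoinositide 3-kinase and so opposes AKT. It was at 9.44, 9.13 and 9.79 in Control and at 9.92, 10.64 and 10.82 in Pax8 +/- islets, above background on all arrays and without overlap. The difference was 1.01 (standard error 0.32, interval 0.27 to 1.75), or 2.01-fold, with a limma adjusted p = 0.745. It was the single gene of its list of phosphoinositide 3-kinase subunits, PDK1 and phosphatases at an unadjusted p of at most 0.05, out of 15 measured, and the median of that list was 0.14.

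Tbc1d7, the third subunit of the TSC complex, was at 6.0, 5.19 and 5.75 in Control and at 6.03, 7.62 and 7.69 in Pax8 +/- islets. The groups did not overlap, but all 6 values were below background, so that the difference of 1.47 (standard error 0.47, limma adjusted p = 0.745) has no readable size. Rhebl1, a relative of Rheb, was below background on all 6 arrays, with a difference of -0.08 (standard error 0.28).

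Sgk1, a kinase related to AKT that mTOR complex 2 activates, was at 7.26, 7.71 and 7.30 in Control and at 7.65, 8.53 and 8.38 in Pax8 +/- islets. Only Pax8 +/- replicates 2 and 3 were above background, and replicate 1 lay within the Control range. The difference was 0.77 (standard error 0.31, limma adjusted p = 0.745). Sgk1 was the 1 gene at an unadjusted p of at most 0.05 among 7 FOXO and SGK genes, whose median difference was 0.16.

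The mTOR complex list held 8 measured genes with a median of 0.14, and Mtor was its 1 gene at that p. In the 4 lists that follow 0 genes had an unadjusted p of at most 0.05, and the values given are those with the smallest p. Among 9 genes of the S6 kinase and translation list (median 0.03), Eif4ebp2, a repressor of cap-dependent translation, differed by 1.01 (standard error 0.53), and Eef2k, the kinase that slows elongation, by -0.61 (standard error 0.35). Among 14 FOXO target genes (median 0.11), Txnip, an inhibitor of thioredoxin that glucose induces in beta cells, differed by -0.75 (standard error 0.36), and Irs2, the adaptor between the insulin receptor and phosphoinositide 3-kinase, by 0.67 (standard error 0.33). Both Txnip and Irs2 had overlapping groups.

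The list of amino acid sensing at the lysosome held 27 genes with a median of 0.09. Nprl2, a subunit of the GATOR1 complex that inhibits mTOR complex 1, differed by 0.77 (standard error 0.36) but was below background on all arrays. Seh1l, a subunit of GATOR2, which opposes GATOR1, was lower on each Pax8 +/- array, at 12.39, 12.20 and 11.87 against 12.54, 12.92 and 12.60, a difference of -0.53 (standard error 0.26). The adjusted p of Seh1l was 0.745 (limma).

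Among 13 genes of AMPK, LKB1 and stress inputs to TSC (median -0.01), Prkab1, a regulatory subunit of AMPK, differed by 0.57 (standard error 0.29). Its values of 9.20, 8.88 and 8.76 in Pax8 +/- islets were above those in Control islets, 7.93, 8.44 and 8.76, by a margin that vanishes in rounding. Ddit4l differed by -0.56 (standard error 0.33) below background. Ddit4 and Eif4ebp1 were chosen for naming after their values were seen. Ddit4, or REDD1, is induced by hypoxia and activates TSC, and it was at 12.21, 13.35 and 11.59 in Control and at 13.11, 10.30 and 9.64 in Pax8 +/- islets, which differed by -1.37 (standard error 0.85, limma adjusted p = 0.754). Its Pax8 +/- replicate 1 lay among the Control arrays and replicates 2 and 3 below them. Eif4ebp1, a further repressor of cap-dependent translation, likewise had Pax8 +/- replicate 1 among the Control arrays and replicates 2 and 3 below them, with a difference of -0.81 (standard error 0.48).

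**Figure D3:**
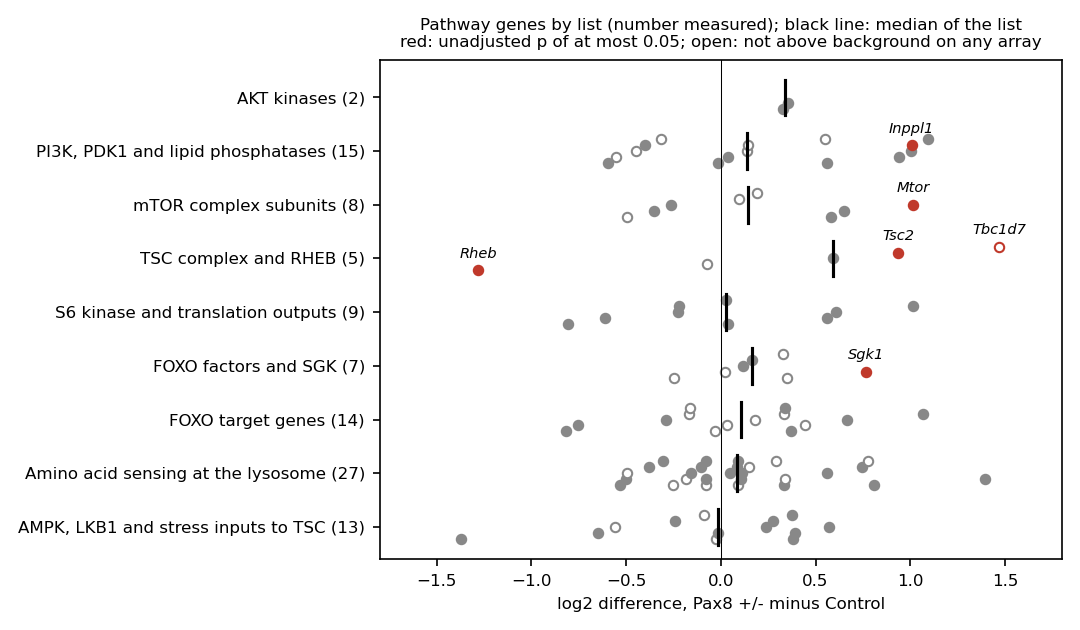
Log2 difference, Pax8 +/- minus Control, of 100 measured pathway genes in 9 lists, 1 point per gene, with list medians as black lines. Mtor, Tsc2, Tbc1d7, Inppl1 and Sgk1 on the higher side and Rheb on the lower side have an unadjusted p of at most 0.05.

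The count of 6 pathway genes at an unadjusted p of at most 0.05 moved with single arrays too. It was 26 without Pax8 +/- replicate 1 and 17 without Control replicate 3, while 15.3% and 10.4% of all probe sets had such a p in those fits. It was 3 without Control replicate 1, Control replicate 2 or Pax8 +/- replicate 2, beside 2.83%, 2.36% and 2.48% of all probe sets, and 1 without Pax8 +/- replicate 3, beside 3.25%. The counts were highest in the fits with the highest shares over all probe sets, but the lowest count, 1, did not come with the lowest share.

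Rheb had the widest range over the arrays, 2.10, among members that were above background on all 6. The 5 genes with profiles most like it were Fxr1, Riok3, Gtpbp4, Eif5b and Tspan14. Likeness was the root mean square difference between 2 profiles over the 6 arrays, after each gene was centred on its mean, and ran from 0.14 to 0.17 for these 5 beside a median of 0.83 over 4322 genes. Their differences between the genotypes were -1.12 for Fxr1, -0.99 for Riok3, -1.12 for Gtpbp4, -1.29 for Eif5b and -0.98 for Tspan14, and they follow from the likeness to Rheb. Of the 5, Eif5b, a translation initiation factor, had groups that did not overlap.

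Other gene groups moved over the same arrays. The mean log2 level of 13 hypoxia (HIF1) target genes ran from 11.79 to 13.16 on the Control arrays. It was 12.71 on Pax8 +/- replicate 1, and 9.28 and 9.11 on replicates 2 and 3. Of the 13, 12 were lower in mean and Vegfa was higher, with a median difference of -2.58. At an unadjusted p of at most 0.05, 6 were lower, beside 2.77% of all probe sets. Groups did not overlap for 2, Pdk1 and Ankrd37, beside 5.14%. The study lists Slc2a1, Pfkfb3 and Ak4 of these genes among its most lowered transcripts from these islets. The list is therefore no independent readout. In the immediate early and dissociation stress list 9 of 11 were lower in mean, Egr1 and Ier2 being higher. List levels were 8.54 to 9.83 in Control and 7.46 to 9.34 in Pax8 +/- islets. At that p 3 were lower, and the groups of 1, Fosb, did not overlap. Of 9 measured beta-cell markers 2, Ins2 and Iapp, lay at the upper end of the scale, where a difference cannot be read. The other 7 all had a higher mean and averaged 11.05, 9.67 and 12.58 in Control and 10.82, 13.81 and 13.95 in Pax8 +/- islets. Of the delta-cell markers 2 of 3 had a higher mean, and Hhex, the other, was below background on all 6 arrays. Sst, the somatostatin gene, was higher by 1.30 with Pax8 +/- replicates 2 and 3 at the upper end, so that this size is not exact. Of the 2 alpha-cell markers below the upper end, Ttr was higher in mean by 0.78 with overlapping groups. The other, Irx2, was higher by 0.13 but below background on all 6 arrays. Mafa, a defining beta-cell transcription factor, was below background on every array.

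Markers of exocrine and vessel cells had lower list levels on Pax8 +/- replicates 2 and 3 than on any Control array, with exceptions among single genes. The level of 7 duct markers was 12.46 to 13.32 in Control and 11.35 to 13.35 in Pax8 +/- islets, with 6 of 7 lower in mean and Krt7 higher by 0.93. That of 6 acinar markers not at the upper end on every array was 12.56 to 12.94 and 11.83 to 12.65, with Bhlha15 higher by 0.75. Of these 6, Cela1 lay close to the upper end, at 19.80 to 19.93, and Ptf1a and Rbpjl were below background on all arrays. The level of 6 endothelial markers was 9.02 to 9.66 and 8.64 to 9.51, with 5 lower in mean. Emcn, higher by 1.06, was the 1 of them at an unadjusted p of at most 0.05, beside 3.14% of all probe sets. At that p the acinar marker Rbpjl (-0.95) and the duct marker Cftr (-0.87) were lower, beside 2.77% of all probe sets. Both had groups that did not overlap but were below background on all 6 arrays. Of 6 mesenchymal and 5 macrophage markers measured, 5 and 4 were below background on all arrays. Among the macrophage markers 3 were higher in mean and 2 lower. C1qa, higher by 1.76, was the 1 of them at an unadjusted p of at most 0.05, beside 3.14% of all probe sets. It was above background on 2 arrays. C1qa and C1qb, higher by 0.26 but below background, had groups that did not overlap, beside 4.52% of all probe sets. In whole islets, fewer cells of a type and less RNA per cell cannot be told apart. The part of hypoxia, dissociation stress and cell makeup in the differences of Rheb, Tsc2 and Mtor was not tested.

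**Figure D4:**
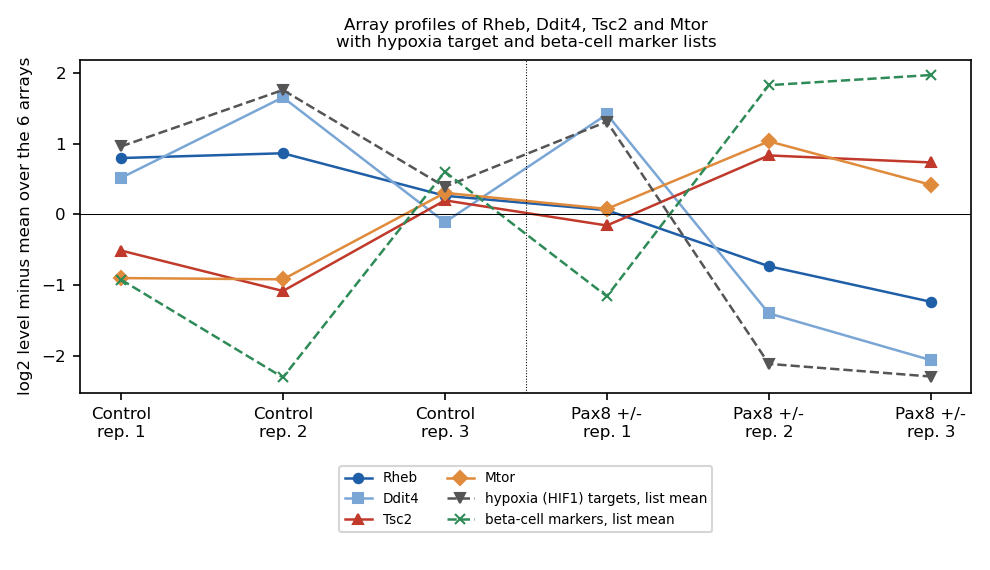
Log2 levels of Rheb, Ddit4, Tsc2 and Mtor and mean levels of the hypoxia target list (13 genes) and of the beta-cell markers below the upper end of the scale (7 genes), each minus its mean over the 6 arrays. Pax8 +/- replicates 2 and 3 hold the lowest values of Rheb, Ddit4 and the hypoxia list and the highest of Tsc2, Mtor and the beta-cell markers, and Pax8 +/- replicate 1 lies nearer to the Control arrays.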

How the data were processed

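Islet RNA of 3 Control and 3 Pax8 +/- samples was hybridized to Clariom S arrays. The deposited log2 values, 1 for each probe set on each array, were made by the authors with RMA (background correction, normalization between arrays and median polish) and the Transcriptome Analysis Console, as the submitters' processing notes name them. Versions of these, the array annotation and the build are not given in these sources.

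The value table held 28846 rows, of which 22206 were gene probe sets and entered the fit without a filter on level. The others were 5222 negative controls and 1418 other controls. The platform annotation paired 19572 gene probe sets with 1 symbol and 0 with several, and 2634 are unnamed here. A check against the RefSeq gene table of GRCm38.p6 updated 0 symbols. The brightest probe set stood for a gene.

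The groups were compared with lmFit and eBayes of limma 3.58.1 (R 4.3.3, 2-sided) over all 6 arrays without covariates, and p-values were adjusted with the Benjamini-Hochberg method over all 22206 probe sets. The code was tested on simulated data. Tables were made with pandas 2.3.3 and exact permutation tests with scipy 1.17.1. The number of arrays limits the precision.

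Named genes were all members, every gene of a pathway list at an unadjusted p of at most 0.05 or otherwise up to 2 with the smallest p, and the 5 genes with profiles nearest to the member of widest range above background on all arrays. Genes named outside this rule were chosen after their values were seen. The members and the lists were chosen with earlier results of these data known. Alternatives were an ordinary linear model, array weights, eBayes with an intensity trend and robust settings, a shift to the same median, quantile normalization, a fit without the dimmest 33.3% of probe sets, the mean of every probe set of a gene, a replicate block, and leaving out each array in turn. Promoter windows came from the RefSeq table, in which all measured members were found, and letters were searched on both strands.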

Additional observations from a re-analysis of the deposited data

How the results depend on the processing

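The count of members at an unadjusted p of at most 0.05, which was 3, became 1 (Rheb) in an ordinary linear model without moderation and 1 to 4 when single arrays were left out. It was 2 to 4 under the other 7 alternatives. The pathway count of 6 became 24 with array weights, where 13.9% of all probe sets had such a p, and 1 to 26 on leaving out single arrays. The median member difference of 0.33 ran from 0.19 to 0.42 on leaving out single arrays and from 0.27 to 0.37 otherwise. Rheb kept its direction and an unadjusted p of at most 0.05 in all 14 alternatives, which reuse the same 6 arrays. Since its groups do not overlap, leaving out an array cannot change that direction. Over the leave-outs its adjusted p ran from 0.079 to 0.9997 (limma). Tsc2 lost its unadjusted p of at most 0.05 in the ordinary linear model, with quantile normalization (difference 0.88) and without the dimmest probe sets. Mtor lost its own in the ordinary linear model. These losses came besides the leave-outs given with the results, and the cause was not tested. On leaving out single arrays the differences of Rptor (-0.28 to 0.41) and Foxo1 (-0.19 to 0.45) changed sign. Without Pax8 +/- replicate 1, 29 probe sets passed the adjusted test, and 0 of them were members. The labels do not say whether the replicate numbers pair the samples. Same-numbered arrays had correlations of deviations of 0.00, -0.42 and 0.14, which cannot decide this with 3 arrays per group. With a replicate block the counts were 3 members and 7 pathway genes. Signals below background limit what can be read for Rptor, Tbc1d7, Rhebl1, Nprl2 and Ddit4l. On part of the arrays this holds for Mtor, Foxo1, Sgk1, Eif4ebp2, Eef2k, Irs2 and Prkab1.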
